A study of Rattus norvegicus with 20 samples.

Results

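The genes analysed here encode 5 intermediate filament proteins of mature neurons: Nefl (ENSRNOG00000013658), Nefm (ENSRNOG00000013916) and Nefh (ENSRNOG00000008716), the light, medium and heavy neurofilament subunits, Ina (ENSRNOG00000020248), alpha-internexin, and Prph (ENSRNOG00000052880), peripherin. They were taken by symbol from a table of 30443 genes, in which each of the 5 has 1 row, and all 5 passed the filter of at least 1 FPKM (fragments mapped to a gene, scaled to the length of the transcript and to the size of the library) in any library, as did 15210 genes in all. The libraries came from 4 adult female Long-Evans rats, WT and about 6 to 8 months old. Every animal, controls included, had received a hemicontusion at cervical level 4 (0.7 mm displacement) and, 2 weeks later, an electrode array in the motor cortex opposite the injury. In 2 animals that cortex was then stimulated for 1 week (10 Hz, 5 hours a day, 5 minutes on and 2 minutes off, at 80% of the movement threshold), and 2 control animals were connected to the stimulator without current. Uninjured or unimplanted animals were not analysed here, so each difference below is between injured animals or between regions of injured animals. Each animal gave 5 libraries of total RNA: region 1, white matter under the electrodes, region 2, the matching block of the other hemisphere, region 3, spinal cord above the injury, region 4, the lesion, and region 5, spinal cord below it, each cord piece with gray and white matter. Each region therefore had 4 libraries, 2 per group.

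Neurofilaments fill the axons of large myelinated neurons. The light subunit forms the core of the filament, and the medium and heavy subunits add long phosphorylated tails that space the filaments and help set axon calibre. Alpha-internexin is a further subunit of central neurons that appears early in development, and peripherin is typical of neurons that send axons out of the central nervous system, such as motor neurons and sensory ganglion neurons. The mRNAs are made mainly in the cell body, so tissue that holds axons but few cell bodies is generally poor in them. The proteins travel down the axon by slow transport, and neurofilament light protein in blood or cerebrospinal fluid is widely used as a marker of axon damage.

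Promoter sequences from RefSeq (build GRCr8) are shown for 2 of the 5 genes, Ina and Prph, which are also the genes at the 2 ends of the family's range between brain and cord. They are printed 5′ to 3′ as the 250 bases before the transcript start on the plus strand. Capitals mark a TATA box (TATAAA) or a GC box (GGGCGG, which reads CCGCCC where it lies on the other strand).
Ina, chr1:255837879-255838128: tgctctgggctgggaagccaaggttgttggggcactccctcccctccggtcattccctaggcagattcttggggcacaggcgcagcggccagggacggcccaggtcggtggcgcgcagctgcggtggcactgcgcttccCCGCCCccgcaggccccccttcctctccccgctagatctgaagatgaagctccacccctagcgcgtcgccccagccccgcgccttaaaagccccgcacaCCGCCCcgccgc
Prph, chr7:132097039-132097288: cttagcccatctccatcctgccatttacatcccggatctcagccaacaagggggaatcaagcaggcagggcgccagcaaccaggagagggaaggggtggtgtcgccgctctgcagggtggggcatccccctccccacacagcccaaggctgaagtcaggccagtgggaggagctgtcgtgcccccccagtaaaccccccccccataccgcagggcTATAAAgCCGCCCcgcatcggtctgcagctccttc
The Prph window held 1 TATAAA, 35 bases before the start, next to 1 GC box at 28 bases. In the Ina window there were 2 GC boxes, at 111 and 12 bases before the start, and no TATAAA. Both strands were searched, and of 33469 rat promoters of the same length 12.9% held TATAAA and 30.5% held GGGCGG. An E box (CANNTG, in 65.5% of promoters) was found once in Ina, at 135 bases, and not in Prph, and the cAMP response element TGACGTCA (1.59% of promoters) was in neither window. GC content was 70.8% for Ina and 64.4% for Prph, against a median of 51.2% over all promoters. These matches describe the letters only.

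The table holds FPKM and no counts, and the read numbers of the libraries were not used here, so no counting interval is given. Some libraries also went against their labels. Regions 1 and 2 are labelled subcortical white matter without cortex, yet they held Slc17a7, the vesicular glutamate transporter of cortical neurons, at 225 to 329 FPKM in the 8 libraries against 0.318 to 11.8 in the 12 of cord. Tbr1, a transcription factor of deep cortical layers, was at 15.4 ± 2.76 FPKM (SD) there and at or next to 0.1, the lowest value in the table, in cord. The myelin gene Mbp was at 768 ± 331 FPKM in these blocks and at 4654 ± 585 in cord. The region 5 libraries of both stimulated animals held transcripts of sensory ganglion neurons: Scn10a, a sodium channel of nociceptors, averaged 1.86 FPKM in these 2 libraries and was at 0.1 in the other 18. The white matter libraries of stimulated animal 2 had the most microglia and macrophage transcripts of the 8, with a sum over 5 markers of 205 FPKM in region 1 and 184 in region 2, against 25.5 to 117 in the other 6.

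Nefl was the most abundant of the 5 transcripts in all 20 libraries, on the FPKM scale, which is per transcript length. From the highest region to the lowest its means were 571 ± 12.1 FPKM (region 5; SD, n = 4), 398 ± 24.9 (region 3), 343 ± 47.2 (region 4), 138 ± 14.6 (region 2) and 106 ± 11.9 (region 1). Only the ranges of regions 3 and 4 overlapped. In cord its mean level lay above 99.8% of the genes that passed the filter.

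Nefm followed the same order of regions at lower levels, 192 ± 9.37 FPKM (region 5), 112 ± 5.66 (region 3), 112 ± 20.6 (region 4), 20.2 ± 2.13 (region 2) and 15.2 ± 1.92 (region 1), again with only regions 3 and 4 overlapping. Nefh reached 294 ± 8.52 FPKM below the injury, 177 ± 16.2 at the lesion, 177 ± 3.39 above it, and 23.0 ± 4.04 and 22.4 ± 3.98 in the brain blocks of regions 2 and 1. Regions 4 and 3 could not be ordered for Nefh, nor could regions 2 and 1. In every cord library Nefh stood above Nefm. The ratio of Nefh to Nefm was 1.14 ± 0.147 in region 2, where Nefm was the higher in 1 library, 1.48 ± 0.254 in region 1, and 1.53 to 1.60 on average in the 3 cord regions.

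Prph had the widest range of the family, from 0.993 FPKM in a region 2 library to 80.0 in a region 5 library. Its means were 66.6 ± 11.5 FPKM (region 5), 31.0 ± 4.19 (region 4), 23.1 ± 1.81 (region 3), 1.60 ± 0.230 (region 1) and 1.24 ± 0.268 (region 2), with an overlap of ranges only between regions 1 and 2. Ina had the narrowest: 32.0 ± 4.16 FPKM (region 3), 26.6 ± 5.27 (region 1), 26.6 ± 2.65 (region 5), 25.7 ± 2.26 (region 2) and 20.5 ± 1.23 (region 4). Of its neighbours in that order only regions 2 and 4 did not overlap. Read by rank, Ina lay above 88.5% of the genes that passed the filter in white matter and 87.7% in cord, whereas Prph lay above 19.3% and 92.6%.

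**Figure D1:**
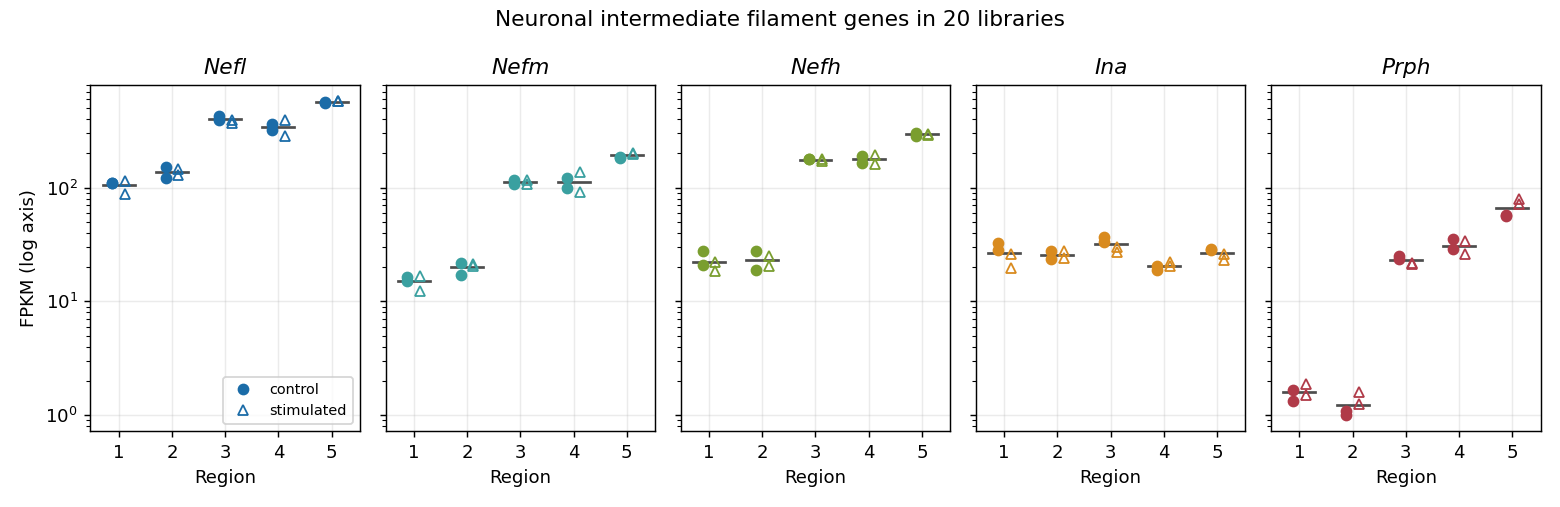
FPKM of each gene on a log axis by region, with filled circles for control animals, open triangles for stimulated animals and a bar for the mean of the 4 libraries. Nefl is the highest gene in every library, Ina stays between 19.0 and 36.9 FPKM in all 20, and Prph runs from 0.993 to 80.0 FPKM.

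The brain blocks and the cord were compared first, as the mean of regions 1 and 2 against the mean of regions 3, 4 and 5. The 3 neurofilament subunits and Prph were lower in the brain blocks, in a graded way, and Ina did not pass. For Prph the brain libraries ran from 0.993 to 1.87 FPKM with a median of 1.42, and the cord libraries from 21.5 to 80.0 with a median of 31.3. That is a 25.9-fold lower level (log2 fold change -4.70, SE 0.10, limma adjusted p = 2.7e-18). Nefh ran from 18.6 to 27.9 FPKM in brain (median 21.5) and from 162 to 304 in cord (median 184). It was 9.33-fold lower in brain (-3.22, SE 0.08, limma adjusted p = 2.39e-17). Nefm ran from 12.5 to 21.7 FPKM in brain (median 16.9) and from 91.4 to 201 in cord (median 119), 7.67-fold lower (-2.94, SE 0.08, limma adjusted p = 7.97e-17). Nefl ran from 88.1 to 152 FPKM in brain (median 118) and from 287 to 582 in cord (median 396), 3.54-fold lower (-1.83, SE 0.07, limma adjusted p = 2.4e-14). None of these 4 genes overlapped between the 2 tissues. Ina overlapped almost fully, from 19.9 to 32.5 FPKM (median 26.8) in brain and from 19.0 to 36.9 (median 26.6) in cord, with a log2 difference of 0.00 (SE 0.08, limma adjusted p = 0.963). The 2 tissues differed in most genes: 72.2% of the genes tested passed in either direction, 47.1% were lower in brain, and 27.1% did not overlap. In bulk tissue, fewer neurons or axons of a kind and less RNA per cell cannot be told apart.

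Most general neuron markers went the other way. Of 9 general neuron markers tested, 6 were higher in the brain blocks and 1 was lower, with a median log2 difference of 0.87 (all genes tested: -0.18). Examples are Syt1, a calcium sensor of synaptic vesicles (267 against 26.4 FPKM), and Rbfox3, the nuclear protein NeuN (39.3 against 14.7). All 6 cortical excitatory neuron markers tested were higher in brain (median 6.08) and all 4 cholinergic motor neuron markers tested were lower (median -5.25). The summed general neuron markers reached 1212 to 2093 FPKM in the brain libraries and 824 to 1625 in cord, with overlapping ranges.

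Genes that move, phosphorylate and degrade neurofilaments split between the tissues. Of 10 axonal transport motors, 3 were higher and 3 lower in brain (median 0.02). The 2 kinesin heavy chains with the largest differences went opposite ways: neuronal Kif5a was higher in brain (188 against 102 FPKM, log2 0.89, SE 0.08) and ubiquitous Kif5b lower (46.2 against 112, -1.28, SE 0.07). Among 11 kinase and phosphatase genes 7 were higher and 1 lower (median 0.59), led by the Cdk5 activators Cdk5r2 (log2 1.99, SE 0.10) and Cdk5r1 (1.91, SE 0.10), while Mapk3, which encodes Erk1, was lower (24.2 against 48.4 FPKM). Of 6 turnover genes 4 were lower and none higher (median -0.68), including Capn1 (-1.39, SE 0.15) and Capn2 (-1.12, SE 0.05), which encode calpain proteases. The 15 microtubule, spectrin and linker genes were split 5 higher to 6 lower (median -0.05). Of 10 intermediate filament genes of other cells 5 were lower in brain and 3 higher, with Gfap of astrocytes at -2.49 (SE 0.32) and Vim, vimentin, at -1.44 (SE 0.28).

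**Figure D2:**
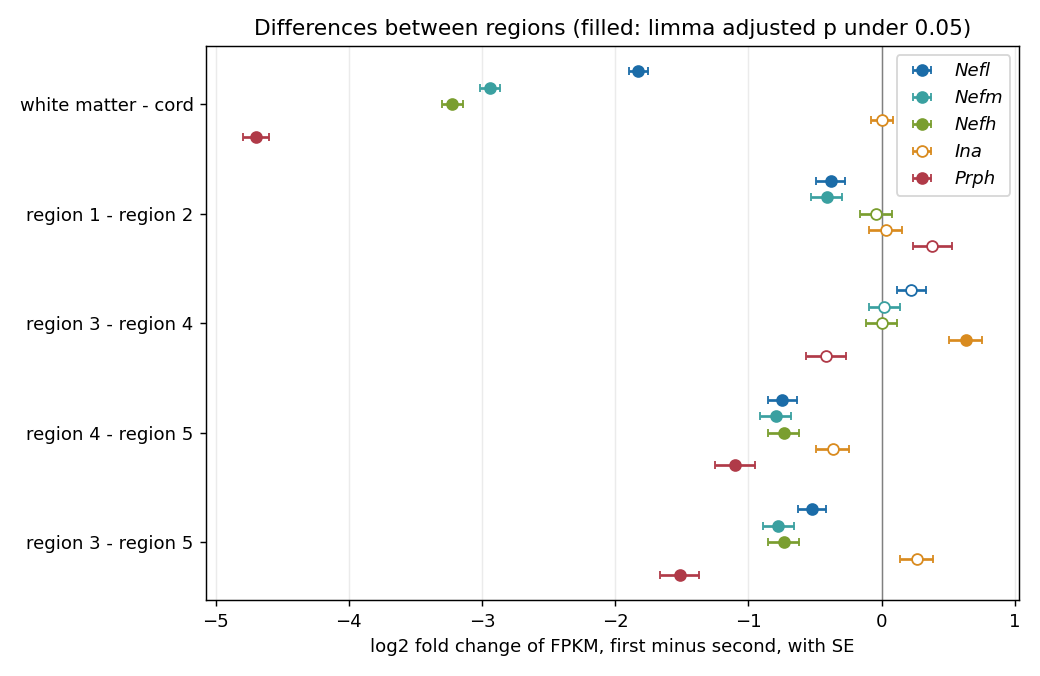
Log2 fold change of FPKM with its SE for each gene in the 5 comparisons between regions, first named minus second, filled where the limma adjusted p is under 0.05. Between white matter and cord the points spread from 0.00 for Ina to -4.70 for Prph, and against region 5 the 3 neurofilament subunits and Prph lie below 0.

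Because a ratio of 2 genes within a library does not depend on how that library was scaled, the make-up of the family was compared as well. The 5 transcripts summed to 172 ± 20.9, 208 ± 21.2, 742 ± 31.4, 683 ± 86.3 and 1150.0 ± 32.9 FPKM from region 1 to region 5 (SD, n = 4). Nefl made up 64.0 ± 2.80% of the sum in the brain libraries and 51.1 ± 2.04% in cord. Nefh made up 12.0 ± 1.68% in brain and 25.1 ± 1.33% in cord, and Nefm 9.28 ± 0.630% and 16.1 ± 1.00%. Ina held 13.9 ± 1.92% in brain and 3.22 ± 0.934% in cord, and Prph 0.775 ± 0.270% and 4.47 ± 1.23%.

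Relative to Nefl, each of the other 4 transcripts differed between the tissues. The log2 ratio to Nefl differed between brain and cord by -1.11 for Nefm, -1.40 for Nefh, -2.87 for Prph and 1.83 for Ina (exact permutation test within animals, two-sided, adjusted p = 0.0001 for each of the 4 ratios, the smallest value its 10000 arrangements allow). The ratio of Prph to Ina was 0.0631 ± 0.0224, 0.0480 ± 0.00883, 0.725 ± 0.0446, 1.52 ± 0.288 and 2.55 ± 0.642 from region 1 to region 5. Prph thus exceeded Ina in all 8 libraries of regions 4 and 5 and in none of the other 12.

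**Figure D3:**
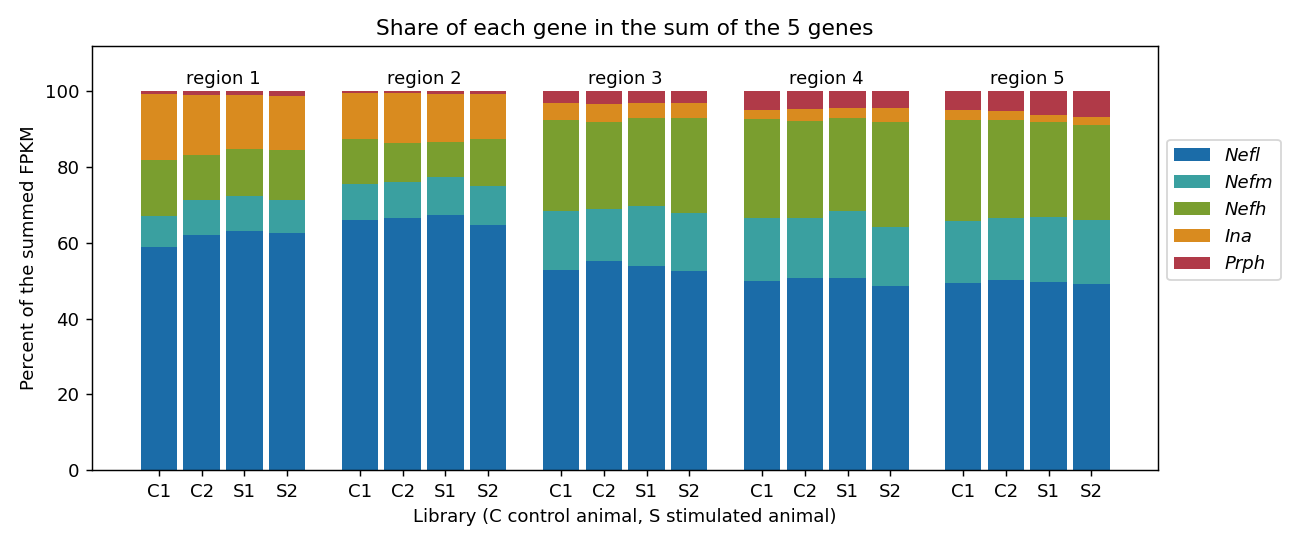
Share of each gene in the summed FPKM of the 5 genes, in percent, as stacked bars for the 20 libraries (C control, S stimulated animal). Nefl takes 59.0 to 67.4% in the brain libraries and 48.8 to 55.3% in cord, and the Ina share is at least 11.9% in brain and at most 4.74% in cord.

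Region 1, under the implant, was compared with region 2 to ask how the implanted side differs from the other hemisphere. Every implant lay opposite the injury, so implant and side of injury cannot be told apart. Nefl and Nefm were modestly lower on the implanted side and Nefh, Ina and Prph did not pass. Nefl was at 111, 111, 114 and 88.1 FPKM in region 1 (control 1, control 2, stimulated 1, stimulated 2) and at 152, 122, 147 and 129 in region 2. The 2 sides did not overlap, and Nefl was 1.30-fold lower (log2 -0.38, SE 0.11, limma adjusted p = 0.0365). Nefm was at 15.2, 16.3, 16.7 and 12.5 FPKM in region 1 and at 21.7, 17.1, 21.5 and 20.4 in region 2, 1.33-fold lower (-0.41, SE 0.12, limma adjusted p = 0.0369). Each was lower on the implanted side in 4 of 4 animals, and 7.57% of all genes did not overlap between the sides. Of all genes tested 1.76% were lower there and 8.61% differed in either direction. The 3 other genes gave -0.04 (Nefh, SE 0.12, adjusted p = 0.875), 0.03 (Ina, SE 0.13, 0.913) and 0.38 (Prph, SE 0.15, 0.116, higher in 3 of 4 animals) by limma. Both calls were lost without control animal 1, without control animal 2 or without stimulated animal 1, and without stimulated animal 2 only Nefl passed. In the 4 control libraries alone neither passed (Nefl -0.30, adjusted p = 0.269, and Nefm -0.29, adjusted p = 0.268).

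None of the 9 general neuron markers tested passed between these 2 regions (median log2 difference -0.18, all genes 0.06, 0 of 9 above 0). The summed general neuron markers of region 1 were 1212 to 1817 FPKM and those of region 2 1706 to 2093, and the lowest Nefl and Nefm values fell in the library with the lowest sum. Genes of other lists did pass on the implanted side: 5 of 6 oligodendrocyte markers (median 0.94), and Vim (log2 2.06, SE 0.43) and Gfap (2.04, SE 0.50) among 10 other intermediate filament genes. So did 5 of 6 genes of injured neurons, among them the transcription factor Atf3 (3.68, SE 0.62) and the neuropeptide gene Gal (3.14, SE 0.30). The other intermediate filament genes summed to 802 FPKM in the region 2 library of stimulated animal 2. This lay within the region 1 range of 479 to 1127, whereas the rest of region 2 had 117 to 147. All 10 transport motors missed the threshold (median 0.01), and 1 of 15 microtubule, spectrin and linker genes passed, Dst (dystonin) at 0.35 (SE 0.07). Of the kinase list 1 of 11 passed, Mapk3 at 0.48 (SE 0.11), and of the turnover list 1 of 6, Capn1 at 0.80 (SE 0.24), all 3 higher in region 1. The part of this difference in cell content in the lower Nefl and Nefm was not tested.

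The lesion (region 4) was compared with the cord above it (region 3). Of the 5 genes 1 passed. Ina was lower at the lesion, at 19.0, 20.6, 20.6 and 22.0 FPKM (control 1, control 2, stimulated 1, stimulated 2), than above it, at 33.6, 36.9, 30.3 and 27.2. The 2 regions did not overlap and Ina was 1.55-fold higher in region 3 (log2 0.63, SE 0.13, limma adjusted p = 0.00224), in 4 of 4 animals. Of all genes tested 12.8% were higher in region 3, 19.6% differed in either direction and 28.8% did not overlap. The call was lost without control animal 2 (0.56, limma adjusted p = 0.0665). The region 3 library of this animal had the highest Ina value. Its cortical excitatory neuron markers summed to 16.0 FPKM, against 3.80 to 6.11 in the other libraries of region 3. Its general neuron markers summed to 1625 FPKM, against 1261 to 1382. The part of this neuron content in the Ina call was not tested.

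Prph did not pass. It was at 23.8, 25.3, 21.7 and 21.5 FPKM in region 3 and at 35.1, 29.0, 33.7 and 26.1 in region 4, with no overlap and lower values in region 3 in 4 of 4 animals (log2 -0.42, SE 0.15, limma adjusted p = 0.0552). It passed with quantile or upper-quartile scaling, on log2(FPKM + 1), with a model of 10 group means and without stimulated animal 2 (adjusted p from 0.0193 to 0.0448). Nefl was higher in region 3 in 4 of 4 animals by 0.01 to 0.41 on the log2 scale but did not pass (0.22, SE 0.11, limma adjusted p = 0.149). Nefm (0.02, SE 0.12, limma adjusted p = 0.933) and Nefh (0.00, SE 0.12, limma adjusted p = 1) were each higher in 2 animals and lower in 2. The sign of both log2 differences turned with upper-quartile scaling.

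Of 9 general neuron markers 8 were lower at the lesion (median log2 difference 0.65 in favour of region 3, all genes 0.02), among them Syt1 (37.5 against 18.6 FPKM) and Snap25, a synaptic fusion protein gene (612 against 372). Of 10 transport motors 6 were lower at the lesion and none higher (median 0.31), with Kif5a at 123 FPKM above and 78.1 at the lesion. Of 11 kinase and phosphatase genes 6 were lower at the lesion (median 0.29), led by Cdk5r2 (0.57, SE 0.16) and Cdk5r1 (0.53, SE 0.15). Of the 15 microtubule, spectrin and linker genes 4 were lower at the lesion, including Tuba4a, an alpha-tubulin (0.51, SE 0.10), and Map2 of dendrites (0.38, SE 0.10), and 1 was higher, Macf1 (-0.32, SE 0.08). Turnover genes were mixed, 2 lower and 1 higher at the lesion of 6. None of the 4 cholinergic motor neuron markers tested passed (median -0.35), and Chodl, a marker of fast motor neurons, was at 19.3 ± 4.50 FPKM in region 3 and 23.8 ± 4.94 in region 4. The Schwann cell and microglia lists went the other way: all 5 Schwann cell markers (summed 14.0 to 64.6 FPKM above, 79.2 to 118 at the lesion) and 2 of 5 microglia and macrophage markers (58.2 to 86.5 and 126 to 258) were higher at the lesion. None of 6 oligodendrocyte markers, 5 astrocyte markers or 10 other intermediate filament genes passed. The sums of the first 2 of these lists overlapped between the regions. The other intermediate filament genes summed to 931 to 1353 FPKM above and 1624 to 2404 at the lesion, without overlap.

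Within the family, the log2 ratio to Nefl differed between regions 3 and 4 by -0.20 for Nefm, -0.22 for Nefh, -0.64 for Prph and 0.41 for Ina. With 4 animals the exact permutation test has 16 arrangements and cannot go below 0.125, which Nefm, Nefh and Prph reached (adjusted p = 0.167) and Ina did not (p = 0.25, adjusted p = 0.25). This design therefore cannot reach 0.05.

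**Figure D4:**
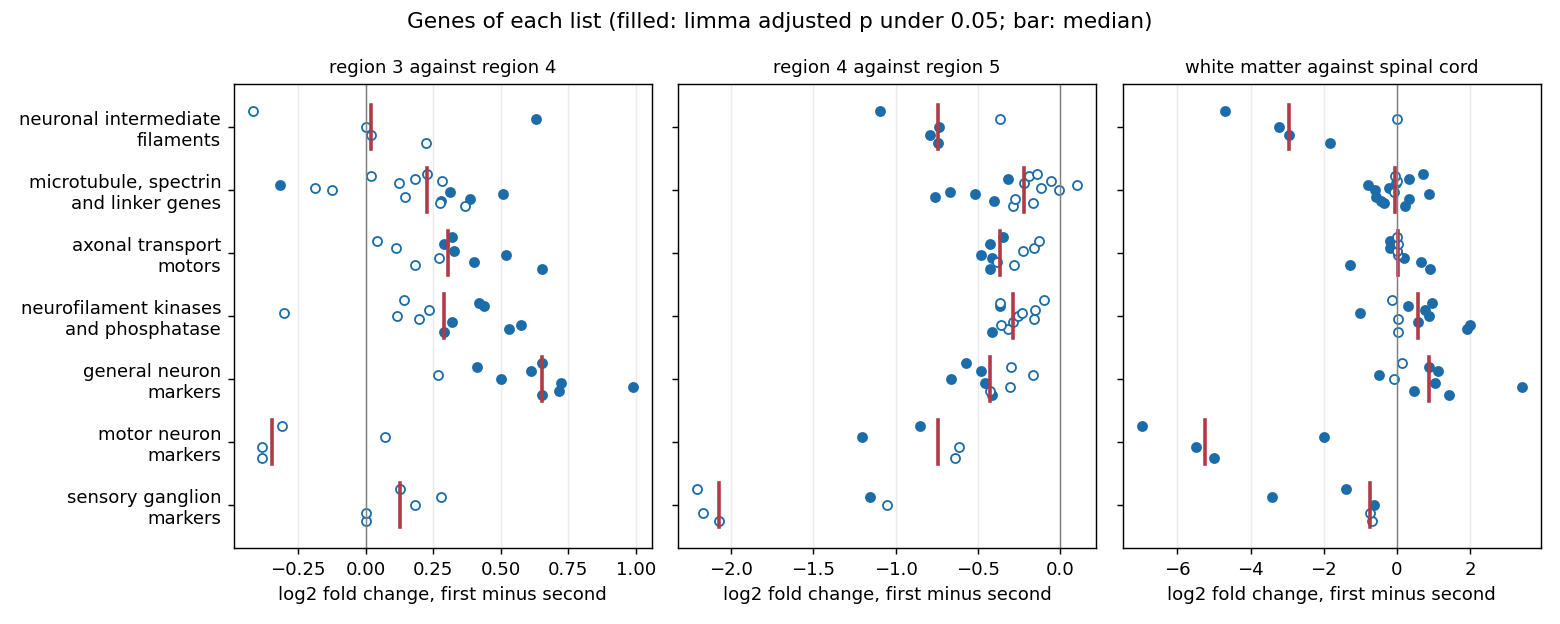
Log2 fold change of every tested gene of 7 lists in 3 comparisons, filled where the limma adjusted p is under 0.05, with a bar for the median of the list. In region 3 against region 4 the general neuron markers have a median of 0.65 and the neuronal intermediate filament genes one of 0.02, whereas in region 4 against region 5 both medians lie below 0 (-0.43 and -0.75).

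Cord below the injury (region 5) held the highest levels of Nefl, Nefm, Nefh and Prph of the 5 regions. Against the lesion, Nefl was at 366, 323, 395 and 287 FPKM in region 4 and at 566, 556, 582 and 579 in region 5 (order as above), and against region 3, at 396, 430.1, 396 and 369. It was 1.68-fold lower at the lesion (log2 -0.75, SE 0.11, limma adjusted p = 0.00195) and 1.44-fold lower above it (-0.52, SE 0.11, adjusted p = 0.0118 by limma). Nefm was at 121, 99.2, 137 and 91.4 FPKM in region 4, at 118, 107, 116 and 107 in region 3 and at 187, 182, 199 and 201 in region 5. Its level was 1.74-fold lower in region 4 (-0.80, SE 0.12, limma adjusted p = 0.00222) and 1.71-fold lower in region 3 (-0.78, SE 0.12, limma adjusted p = 0.00142). Nefh was at 189.9, 164, 192 and 162 FPKM in region 4, at 179, 179, 172 and 177 in region 3 and at 304, 284, 294 and 293 in region 5. The heavy subunit was 1.66-fold lower in each (region 4 -0.74, SE 0.12, adjusted p = 0.00408; region 3 -0.74, SE 0.12, adjusted p = 0.00219, limma).

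Prph was 2.14-fold lower at the lesion (-1.10, SE 0.15, limma adjusted p = 0.00128) and 2.86-fold lower above it (-1.52, SE 0.15, limma adjusted p = 2.77e-05) than in region 5, where it was at 57.4, 56.6, 72.3 and 80.0 FPKM. All 4 genes were lower in 4 of 4 animals in both comparisons, with no overlap. Ina, at 29.1, 28.1, 23.1 and 26.0 FPKM in region 5, did not pass in either (region 4 -0.37, SE 0.13, adjusted p = 0.0699; region 3 0.26, SE 0.13, adjusted p = 0.201, limma), although it was lower at the lesion in 4 of 4 animals. With the animal as a block it passed against the lesion (limma adjusted p = 0.0474). Of all genes tested 7.06% were lower in region 4 than in region 5 (7.99% in either direction) and 18.1% did not overlap. For region 3 these shares were 2.77%, 4.32% and 25.5%. Both comparisons use the same region 5 libraries.

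The region 5 libraries of the 2 stimulated animals held sensory ganglion transcripts, so these calls were also made without them. The part of that tissue in the calls was not tested, and leaving the libraries out also lowers the sample size. All 5 sensory ganglion markers tested had a higher mean in these 2 libraries than in the 2 control libraries of region 5, and the summed markers came to 11.1 and 19.2 FPKM against 2.61 and 2.14. Scn10a and Scn11a were at 0.1 FPKM in both control libraries. Schwann cell markers summed to 237 and 233 FPKM against 109 and 86.8. Without the 2 stimulated libraries the differences were -0.72 for Nefl, -0.74 for Nefm, -0.74 for Nefh and -0.89 for Prph against the lesion (limma adjusted p from 0.0525 to 0.0575), and none passed. Against region 3 they were -0.50, -0.72, -0.74 and -1.31 in the same order, and only Prph passed (limma adjusted p = 0.00307). With all stimulated libraries left out only Prph passed against the lesion and none passed against region 3. Leaving out control animal 2 left only Prph past the threshold against the lesion, and leaving out control animal 1 left Nefh and Prph. Against region 3 the Nefl call was lost without control animal 1, control animal 2 or stimulated animal 1, and the Nefh call without stimulated animal 1.

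Several neuronal genes were also lower at the lesion than in region 5. These were 5 of 9 general neuron markers (median -0.43, all genes -0.14), with Uchl1, a neuronal ubiquitin hydrolase, at 229 and 362 FPKM, and 5 of 10 transport motors (median -0.37). Of the 15 microtubule, spectrin and linker genes 5 were lower, led by Tubb3, neuronal beta-tubulin (-0.76, SE 0.09), and Stmn2, a tubulin regulator of growing axons (-0.67, SE 0.09). The kinase list gave 2 of 11 (Cdk5 -0.42, SE 0.09, and Mapk9, a Jun kinase, -0.36, SE 0.11), and the turnover list 2 of 6. Against region 3, 1 of 9 general neuron markers differed and was higher in region 3 (Syt1, 0.69, SE 0.14), no motor of 10 passed, 1 of 11 kinase and phosphatase genes and 1 of 6 turnover genes were lower, and Tubb3 (-0.61, SE 0.09) and Stmn2 (-0.36, SE 0.09) were the 2 of 15 microtubule, spectrin and linker genes that were lower.

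Cholinergic motor neuron markers had their highest levels in the same region. Chodl was at 42.5 ± 2.75 FPKM in region 5 against 19.3 ± 4.50 in region 3 (log2 -1.17, SE 0.18, limma adjusted p = 0.00161) and 23.8 ± 4.94 in region 4 (-0.85, SE 0.18, limma adjusted p = 0.0155). Chat, choline acetyltransferase, was at 11.6 ± 0.874 FPKM in region 5, 5.75 ± 0.905 in region 3 and 7.52 ± 1.35 in region 4, and passed against region 3 only (-1.02, SE 0.25, limma adjusted p = 0.0286). Slc5a7, the choline transporter, was at 25.1 ± 0.738, 12.6 ± 1.03 and 16.5 ± 2.31 FPKM in the same order. Of the 4 markers tested 2 were lower in region 4 and 3 in region 3 than in region 5, and the part of motor neuron content in the neurofilament and Prph differences was not tested. The labels place region 3 at about cervical levels 2 to 4 and region 5 at about 4 to 6, while the design text of the series puts region 5 about 1 level lower. Either way, position along the cord and the injury cannot be told apart.

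Stimulated and control animals were compared within each region, which is the contrast the study was built for. None of the 5 genes passed in any region by limma (lowest adjusted p = 0.712, Ina in region 1), where 0% of all genes tested were called in regions 1 to 4 and 0.0197% in region 5. The number of all genes called depended on single animals, and reached 228 in region 1 and 548 in region 2 without stimulated animal 1, 140 in region 4 without control animal 2 and 147 in region 5 without stimulated animal 1, with none of the 5 genes among them. At an unadjusted p under 0.05 limma gave 828, 215, 522, 341 and 546 genes of 15210 in regions 1 to 5. Summed over the 5 transcripts, control and stimulated animals had 183 ± 7.18 and 160.3 ± 27.5 FPKM (region 1), 206 ± 34.0 and 209 ± 13.3 (region 2), 764 ± 19.8 and 719 ± 23.4 (region 3), 683 ± 67.5 and 684 ± 133 (region 4), and 1125 ± 26.9 and 1175 ± 5.56 (region 5; SD, n = 2).

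Ina in region 1 had the lowest adjusted p. There it was at 32.5 and 28.3 FPKM in control animals and 25.9 and 19.9 in stimulated animals (log2 -0.42, SE 0.18, limma adjusted p = 0.712), in region 3 at 33.6 and 36.9 against 30.3 and 27.2 (-0.29, SE 0.09, 0.956) and in region 5 at 29.1 and 28.1 against 23.1 and 26.0 (-0.22, SE 0.10, 1). The groups did not overlap in these 3 regions, with stimulated animals lower. In region 2 (0.01, SE 0.14) and region 4 (0.11, SE 0.12) they overlapped. Non-overlap of 2 against 2 was common: it held for 40.6%, 27%, 29.9%, 20.2% and 24.6% of all genes from region 1 to region 5. In region 1 the summed general neuron markers were 1776 and 1817 FPKM in control and 1212 and 1687 in stimulated animals. Microglia and macrophage markers there summed to 83.8 and 70.7 FPKM in control and 117 and 205 in stimulated animals, all 5 with a higher mean. The part of either in the Ina values was not tested.

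Prph differed in sign between regions. In region 5 it was at 57.4 and 56.6 FPKM in control animals and 72.3 and 80.0 in stimulated animals (log2 0.42, SE 0.10, limma adjusted p = 1). The same 2 stimulated libraries held the sensory ganglion and Schwann cell transcripts, and Prph is itself a gene of sensory ganglion neurons. The part of that tissue in the Prph value was not tested. In region 2 Prph was at 1.08 and 0.993 FPKM in control and 1.60 and 1.27 in stimulated animals (0.46, SE 0.22, adjusted p = 0.949 by limma). In region 3 the direction was opposite, 23.8 and 25.3 against 21.7 and 21.5 FPKM (-0.18, SE 0.06, limma adjusted p = 0.956). Regions 1 (0.17, SE 0.24) and 4 (-0.11, SE 0.20) overlapped.

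The neurofilament subunits were closer to 0. Nefl differed by -0.15 to 0.05 on the log2 scale over the 5 regions, Nefm by -0.12 to 0.12 and Nefh by -0.25 to 0.00, with SEs from 0.10 to 0.32. At the lesion, where stimulated animals 1 and 2 differed most (Nefl 395 and 287 FPKM, Nefm 137 and 91.4), the SE of Nefl was 0.32. In region 5 Nefl (566 and 556 against 582 and 579 FPKM) and Nefm (187 and 182 against 199 and 201) did not overlap and were higher in stimulated animals, and in region 3 Nefh (179 and 179 against 172 and 177) did not overlap and was lower. Of all genes 24.6% did not overlap in region 5 and 29.9% in region 3. No gene of the transport motor, kinase, turnover, microtubule or general neuron lists passed in any region.

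**Figure D5:**
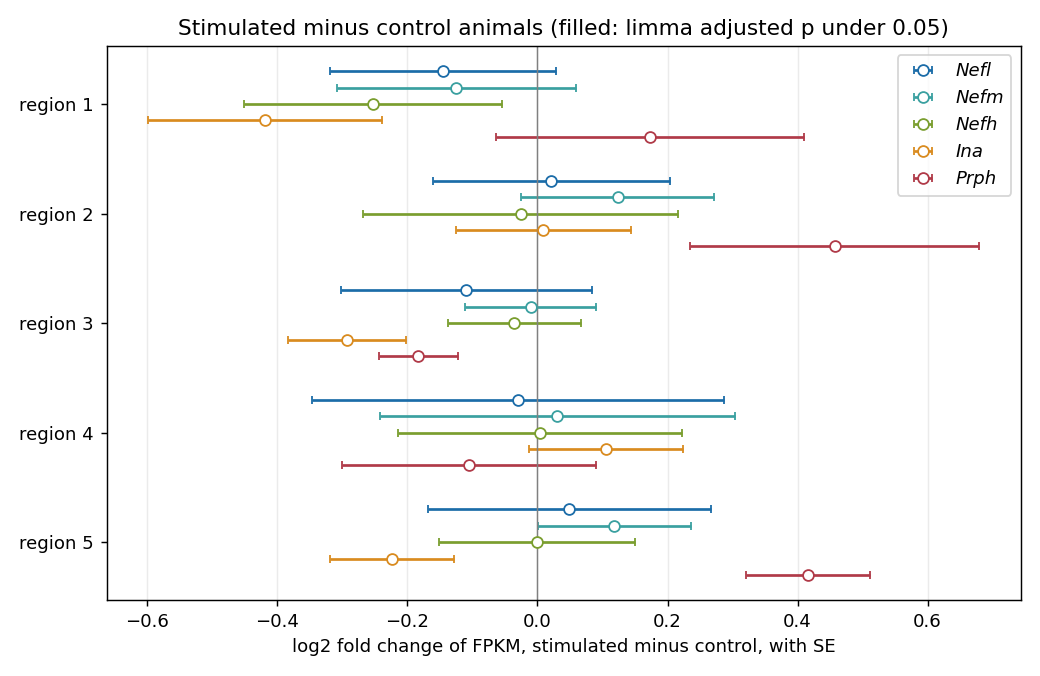
Log2 fold change of FPKM in stimulated minus control animals with its SE, by region, for each gene (2 animals per group). No point is filled, that is, none has a limma adjusted p under 0.05, and the values run from -0.42 (Ina, region 1) to 0.46 (Prph, region 2).

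Region 2 served the study as an internal control for region 1, so the stimulation effect was also compared between these sides within animals. The difference was negative for all 5 genes, from -0.17 for Nefl (SE 0.19) to -0.43 for Ina (SE 0.12), against a median of -0.13 over all genes tested. None passed (limma adjusted p = 0.884 for Ina, 0.884 to 0.888 for the 5), as was the case for 0% of all genes, and 575 of 15210 had an unadjusted p under 0.05. Without stimulated animal 1, 113 genes passed, none of the 5 among them.

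Over the 20 libraries, the likeness of 2 genes was measured as the root mean square difference of their log2 FPKM after each gene was centred on its own mean, among 15149 genes compared. Nefm and Nefh were each other's near neighbours: Nefh ranked 1 for Nefm and Nefm ranked 2 for Nefh, at a distance of 0.23. Vwa7 (0.18) and P2rx6 (0.25), a purinergic receptor gene, were the other 2 nearest to Nefh, and Popdc3 (0.27) and Fibin (0.28) the other 2 nearest to Nefm. Nefl was nearest to Sh3bgr (0.18), Nrg1 (0.22), which encodes the ligand neuregulin 1, and Dhrs11 (0.22), with Nefm at rank 1090 and a distance of 0.56. Ina was nearest to Rasgrf1 (0.07), Panx2 (0.08) and Atp2b3 (0.08), genes for a Ras exchange factor, a pannexin and a plasma membrane calcium pump, and Nefl, the nearest of its family, came at rank 12814. Prph was nearest to Rab37, Hoxc6 and Chat, with distances of 0.43, 0.43 and 0.44, and Nefh was at rank 66 with 0.82. All 20 libraries, brain and cord, entered the measure, and the 5 libraries of an animal are not independent. Values were not scaled to their spread, so genes that vary little lie close together, and distances cannot be compared between the 5 genes. The 3 nearest to Ina had near equal means in brain and cord, such as Rasgrf1 at 64.1 and 64.6 FPKM. Several of these genes were low in brain, among them Vwa7 at a mean of 0.293 FPKM and Popdc3 at 0.121. The 3 genes nearest to Prph were low there as well, Rab37 at 0.270 FPKM, Chat at 0.262 and Hoxc6 at the floor of 0.1.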

How the data were processed

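Total RNA was depleted of ribosomal RNA, made into stranded libraries and sequenced with paired ends, all libraries together. The authors aligned the reads to the rat genome Rnor6 with TopHat2 2.1.0 and computed FPKM with Cufflinks 2.2.1, and they set FPKM values under 0.1 to 0.1 before they deposited the table. FastQC and MultiQC 1.6 are also named in the submitters' processing notes. No column lacked a sample (0), and no 2 libraries held identical values.

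The deposited FPKM values were analysed as log2 FPKM, after removal of genes under 1 FPKM in all 20 libraries, with limma 3.58.1 in R 4.3.3. P-values were adjusted by Benjamini-Hochberg over all 15210 genes, with a threshold of 0.05. Fold changes are on the log2 FPKM scale with its floor of 0.1, which understates changes of low genes. Stimulated and control animals were fitted within each region (2 against 2), regions in all 20 libraries, and the difference of the stimulation effect between regions 1 and 2 on differences within animals, with the mean level of each gene as trend covariate of the variance. Ratios within the family were compared by exact permutation within animals and adjusted over 4 ratios. Scripts were tested on simulated data. Figures and permutations used Python 3.11.15, scipy 1.17.1 and matplotlib 3.10.9.

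Genes named beside the 5 are up to 4 per list with the largest change among those that passed, defining markers that the check of a tissue rests on, and the 3 genes most like each of the 5. The 5 genes and all lists were chosen with earlier results of these data known. Of the lists, Nes, Neurod2, Slc18a3 and Prrxl1 had no row under that symbol, and Krt18, Eno2, Mnx1 and Mrgprd did not pass the filter.

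The 5 libraries of an animal are paired by design, since they come from the same animal: deviations from the region means correlated at 0.588 between regions 1 and 2, 0.208 between 3 and 4, 0.125 between 3 and 5 and 0.0280 between 4 and 5. The region means were taken over both groups, so a difference between the groups that 2 regions share also enters these values. Separate animals carry the same number in the 2 groups, so those numbers only name them. Other settings tried were log2(FPKM + 1), 2 other filters, quantile and upper-quartile scaling, a model of 10 group means, each animal left out, control libraries only and the animal as a block. For stimulation the animals were the replicates, with 2 per group. The main fits between regions took all 20 libraries without a term for the animal. Their p-values therefore treat the 5 libraries of an animal as independent.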

Additional observations from a re-analysis of the deposited data

Results flagged for a closer look

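Nefl in region 1 was at 88.1 FPKM in stimulated animal 2, far from the other 3 libraries of the region (111, 111 and 114 FPKM), with a gap to the nearest that took 0.879 of the range of the 4. Of 30 groups of libraries looked at this was the only one. Chance gives about 1 in 20 groups, so 1 in 30 is no more than chance would give. The same library had the lowest summed general neuron markers of region 1, at 1212 FPKM against 1687 to 1817.

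The stimulation effect on Prph had opposite signs in different regions, with each stimulated library on one side of both control libraries. It was 0.46 on the log2 scale in region 2 and -0.18 in region 3, and 0.42 in region 5. Such non-overlap was common, at 27%, 29.9% and 24.6% of all genes in regions 2, 3 and 5. These were 2 of 50 pairs of regions looked at over the 5 genes, and the differences between the regions were not tested.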

How the results depend on the processing

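Lower Nefl, Nefm, Nefh and Prph in brain than in cord passed under every alternative run, and in no region did any of the 5 genes pass between stimulated and control animals under any. Of the other counts of genes that passed, 2 in region 1 against region 2 became 0 with no filter, with 10 group means and in control libraries only, and 0 to 1 with 1 animal left out. The 1 in region 3 against region 4 became 2 on log2(FPKM + 1), with quantile or upper-quartile scaling and with 10 group means, and 0 to 2 with 1 animal left out. The 4 in region 4 against region 5 became 1 in control libraries only, 0 without the region 5 libraries of stimulated animals, and 1 to 5 with 1 animal left out. The 4 in region 3 against region 5 became 0, 1 and 2 to 4 in the same settings. The cause was not tested. With the animal as a replicate block the counts were 2, 1, 5 and 4 for these comparisons and 4 for brain against cord, and Ina in region 4 against region 5 (adjusted p = 0.0474) was the only changed call.

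Blocking on the replicate number gave 0 of the 5 genes for stimulation in every region. Same-numbered animals of the 2 groups correlated at -0.213, -0.0974, -0.106, 0.321 and -0.164 in regions 1 to 5, and the crossed pairing, added after seeing the data, also gave 0. Leaving out the region 2 library or both brain libraries of stimulated animal 2 and the region 5 libraries of stimulated animals was likewise chosen after seeing the data.

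Log2 differences that turned their sign were all of genes that had not passed. With quantile normalization these were, for stimulation, Nefl -0.17 and Ina -0.10 in region 2, Nefm 0.049 and Nefh 0.036 in region 3, Nefh -0.034 in region 4, Nefh 0.023 in region 5 and Nefl 0.019 for the difference between regions 1 and 2, and Ina -0.00034 in region 1 against region 2. With upper-quartile scaling they were Nefl -0.085 and Ina -0.10 in region 2, Nefm 0.062 and Nefh 0.037 in region 3, Ina -0.027 in region 1 against region 2, and Nefm -0.021 and Nefh -0.040 in region 3 against region 4. In region 1 against region 2, Nefh was 0.073 in control libraries only and 0.0029 without the region 2 library of stimulated animal 2, where Ina was -0.0022. Ina was -0.033 in brain against cord without the region 5 libraries of stimulated animals.

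With 1 animal left out, stimulation in region 1 ranged from -0.33 to 0.038 for Nefl and from -0.34 to 0.088 for Nefm. In region 2 it ranged from -0.14 to 0.18 (Nefl), -0.048 to 0.29 (Nefm), -0.30 to 0.25 (Nefh) and -0.10 to 0.12 (Ina), and in region 3 from -0.079 to 0.058 (Nefm). In region 4 it ranged from -0.26 to 0.20 (Nefl), -0.26 to 0.32 (Nefm), -0.12 to 0.12 (Nefh) and -0.29 to 0.080 (Prph), and in region 5 from -0.052 to 0.051 (Nefh). Region 1 against region 2 gave -0.10 to 0.086 (Nefh) and -0.044 to 0.13 (Ina), region 3 against region 4 -0.052 to 0.10 (Nefm) and -0.042 to 0.055 (Nefh), and brain against cord -0.054 to 0.072 (Ina). The difference of the stimulation effect between regions 1 and 2 gave -0.50 to 0.040 (Nefh) and -0.61 to 0.042 (Prph).

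Over all genes the numbers past the threshold moved widely: 1310 in region 1 against region 2 (26 to 3674 over the alternatives), 2984 in region 3 against region 4 (523 to 4909), 1216 in region 4 against region 5 (5 to 1966), 657 in region 3 against region 5 (0 to 1237) and 10977 in brain against cord (9474 to 12466). For stimulation the counts of 0, 0, 0, 0 and 3 in regions 1 to 5 reached up to 228, 548, 3, 140 and 443 (the last with the replicate block), and the 0 for the difference between regions 1 and 2 up to 113, or 17 with the replicate block. The split of higher to lower calls also moved with scaling, from 1043 and 267 to 943 and 841 (quantile) in region 1 against region 2, from 142 and 1074 to 195 and 275 in region 4 against region 5, from 235 and 422 to 674 and 435 in region 3 against region 5, and from 3808 and 7169 to 5054 and 6018 in brain against cord. The median of all genes moved from -0.18 to -0.04 in brain against cord, from -0.14 to -0.03 in region 4 against region 5 and from -0.11 to 0.02 in region 3 against region 5. With upper-quartile scaling region 3 against region 4 went from 1953 and 1031 to 2487 and 2116. Read numbers were not used here, and 2 animals per group limit the comparisons.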

Other observations

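The ratio of Prph to Ina in region 5 was 1.97 and 2.01 in control animals and 3.08 and 3.13 in stimulated animals, the same stimulated libraries that held sensory ganglion transcripts. Ina itself was at 29.1 and 28.1 FPKM in the control and 23.1 and 26.0 in the stimulated libraries, so both genes enter this difference. The motor neuron gene Chat was at 11.7 ± 1.44 and 11.5 ± 0.437 FPKM there (SD, n = 2 each). The part of sensory ganglion tissue or of motor neuron content in the ratio was not tested.

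The ratio of Nefh to Nefm was 1.31 ± 0.265 in the brain libraries (n = 8) and 1.57 ± 0.108 in cord (n = 12), with 1.48 ± 0.254 in region 1 and 1.14 ± 0.147 in region 2 (n = 4 each). Between brain and cord this is a log2 difference of -0.28 (exact permutation test within animals, two-sided, p = 0.0039, adjusted over 4 ratios 0.0039).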
